A study of Sus scrofa with 32 samples.

Results

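The calcium handling genes described here are 6 of the 25322 gene IDs of the count table and were chosen by name: PVALB (ENSSSCG00000000138), CIB2 (ENSSSCG00000001762), ATP2A1 (ENSSSCG00000007805), CASQ1 (ENSSSCG00000006390), TNNC2 (ENSSSCG00000007424) and MYLK2 (ENSSSCG00000007231). Total RNA freed of ribosomal RNA was sequenced from 16 female pigs, all labelled as 180 days old. Of these, 8 were of the Pulawska breed (PUL) and 8 of Polish Landrace (PL), and 2 muscles of each were used, longissimus dorsi (LD) and semimembranosus (S). Each pig gave 1 library of each muscle, so that there were 8 libraries in each of the 4 groups (PUL LD, PUL S, PL LD and PL S) and 32 in all. All pigs were kept under the same housing and feeding at 1 test station. The study fed them to the same range of body weight before slaughter, reported a higher daily gain in PL and used age at slaughter as a trait. Age may therefore have differed between the breeds in spite of the labels, and its part in the breed values was not tested. The labels class every PUL sample as high and every PL sample as low shear force, which is the reverse of the order of the breeds in the study's own meat measurements. This class is therefore not used here, and it cannot be told apart from breed. PVALB and CIB2 had been named by the study as breed genes in these same libraries, so that their breed values are not independent evidence.

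In skeletal muscle, contraction starts when calcium leaves the sarcoplasmic reticulum, binds troponin C on the thin filament and frees the sites to which myosin attaches. It ends when a pump returns the calcium to the reticulum. Fast fibres are known to hold more of the pump, more of the calcium-storing protein of the reticulum and, in small animals above all, more of a soluble calcium buffer than slow fibres do. CASQ1 encodes calsequestrin 1, the store protein, ATP2A1 the fast pump SERCA1, TNNC2 the fast troponin C and PVALB parvalbumin, the soluble buffer. MYLK2 encodes the skeletal myosin light chain kinase, which calcium-bound calmodulin turns on. CIB2 encodes a small calcium- and integrin-binding protein, whose link with fast fibres is not textbook knowledge.

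Counts per library summed to between 8821259 and 24761846, with a median of 15529910, and the 6 genes together took 2.42% to 7.35% of a library's counts. TNNC2 alone took 2.09% to 6.85%. Muscle fibre markers were high in every library, where ACTA1, NEB and DES (3 of 7 markers matched to an ID) summed to 37640 to 168414 CPM, CPM being counts scaled to a common library size with TMM factors. The summed level of 10 of 12 hepatocyte markers was 31.8 to 157 CPM in LD and 26.2 to 1456 CPM in S of PUL pigs 1 to 5, and 8.01 to 65.2 CPM in the other libraries. APOC3, one of these markers, was at 0 in 18 libraries. Adipocyte markers (3 of 6) summed to 0.571 to 25.8 CPM, smooth muscle markers (4 of 5) to 37.7 to 159 CPM, red blood cell markers (3 of 4) to 15.1 to 1048 CPM, and neuron markers (4 of 5) to 0.0699 to 1.396 CPM.

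Some PL libraries lay with the other muscle than the one on their label. Between S and LD of the PUL pigs, 7 genes passed the test described below, among them the positional transcription factors ZIC1, ZIC4, HOXA7 and HOXC6. When these genes were read in all libraries, the library labelled LD of PL pig 14 was nearer to the PUL mean of S for 7 of 7 genes, and the library labelled S of that pig was nearer to LD for 6 of 7. The library labelled S of PL pig 8 was nearer to LD for 5 of 7. In the other 29 libraries, 5 to 7 of the 7 genes were nearer to the labelled muscle, which for PUL libraries follows in part from how the genes were chosen. ZIC1, for example, was at 0.0638 CPM in the library labelled LD and 2.69 CPM in the library labelled S of PL pig 14, at 3.74 CPM in the library labelled S of PL pig 8, between 1.70 and 7.43 CPM in the other LD libraries and between 0.145 and 0.769 CPM in the other S libraries. The labels were kept as given, and the members' tests and correlations between genes that include PL pigs were also run without PL pigs 8 and 14. The group levels, the gene lists and the likeness over 32 libraries were not.

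PVALB was the member with the widest spread. In LD of PUL pigs it was lowest at 10.1 CPM in pig 5, with a median of 45.2 CPM and a highest value of 178 CPM in pig 17. In S of PUL pigs it ran from 24.83 CPM in pig 2 through a median of 224 CPM to 667 CPM in pig 17. In PL pigs it ran from 69.3 to 764 CPM in LD, with a median of 308 CPM, and from 145 to 802 CPM in S, with a median of 291 CPM. The LD libraries of PUL pigs thus held the lowest levels, and all 4 groups overlapped.

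The group means of PVALB were 74.6 ± 63.0 CPM in PUL LD, 239.5 ± 212 CPM in PUL S, 312 ± 213 CPM in PL LD and 398 ± 224 CPM in PL S (SD, n = 8 each). This is also their rising order. Neither PUL S against PUL LD nor PL S against PL LD passed the main test given below, which does not show that they were alike. PUL S and PL LD were not tested against each other. The SD of PVALB within groups, pooled over the 4 groups, was 1.25 on the log2 scale, above that of 98.5% of 5047 genes with a mean of at least 10 CPM, for which the median was 0.38.

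CIB2 was expressed at low levels. It was lowest in LD of PUL pigs, from 3.47 CPM in pig 13 through a median of 4.51 CPM to 7.72 CPM in pig 3, and these values rested on 47 to 139 counts a library. In S of PUL pigs it ran from 7.35 to 11.6 CPM with a median of 9.48 CPM. In PL pigs, the values ran from 6.51 to 17.2 CPM in LD (median 9.22 CPM) and from 4.61 to 17.7 CPM in S (median 9.14 CPM).

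The means of CIB2 were 5.03 ± 1.42 CPM in PUL LD, 9.57 ± 1.52 CPM in PUL S, 10.54 ± 3.95 CPM in PL LD and 10.3 ± 4.78 CPM in PL S (SD, n = 8 each). The lowest group was PUL LD, and the medians of the other groups were close to each other. The highest PL values in LD and in S, 17.2 and 17.7 CPM, were both those of pig 14. The pooled SD of CIB2 was 0.45 on the log2 scale, the smallest of the 6 genes, above that of 66.8% of genes.

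The remaining members were expressed at high levels, and their groups overlapped throughout. ATP2A1 ran from 448 CPM, in LD of PL pig 10, to 3681 CPM, in the library labelled S of PL pig 14. Its means were 1832 ± 1075 CPM in PUL LD, 1869 ± 920 CPM in PUL S, 1397 ± 815 CPM in PL LD and 1373 ± 978 CPM in PL S. CASQ1 ran from 1239 CPM, in LD of PUL pig 2, to 8365 CPM, in LD of PL pig 7, with group means of 3579 ± 1408, 3240 ± 886, 4127 ± 2130 and 3278 ± 775 CPM in the same order.

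TNNC2 ran from 16417 CPM, in LD of PUL pig 1, to 75352 CPM, in S of PUL pig 17. Its means were 43034 ± 20301, 48126 ± 16673, 43422 ± 15252 and 39015 ± 12842 CPM in PUL LD, PUL S, PL LD and PL S. MYLK2 ran from 136 CPM, in S of PUL pig 2, to 1192 CPM, in LD of PUL pig 3, with means of 570 ± 396, 398 ± 187, 454 ± 216 and 359 ± 217 CPM. The pooled SDs were 0.89 for ATP2A1, 0.83 for MYLK2, 0.59 for TNNC2 and 0.58 for CASQ1 on the log2 scale, all above the median of 0.38. Levels of different genes are not compared with each other, since no gene lengths were used.

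**Figure D1:**
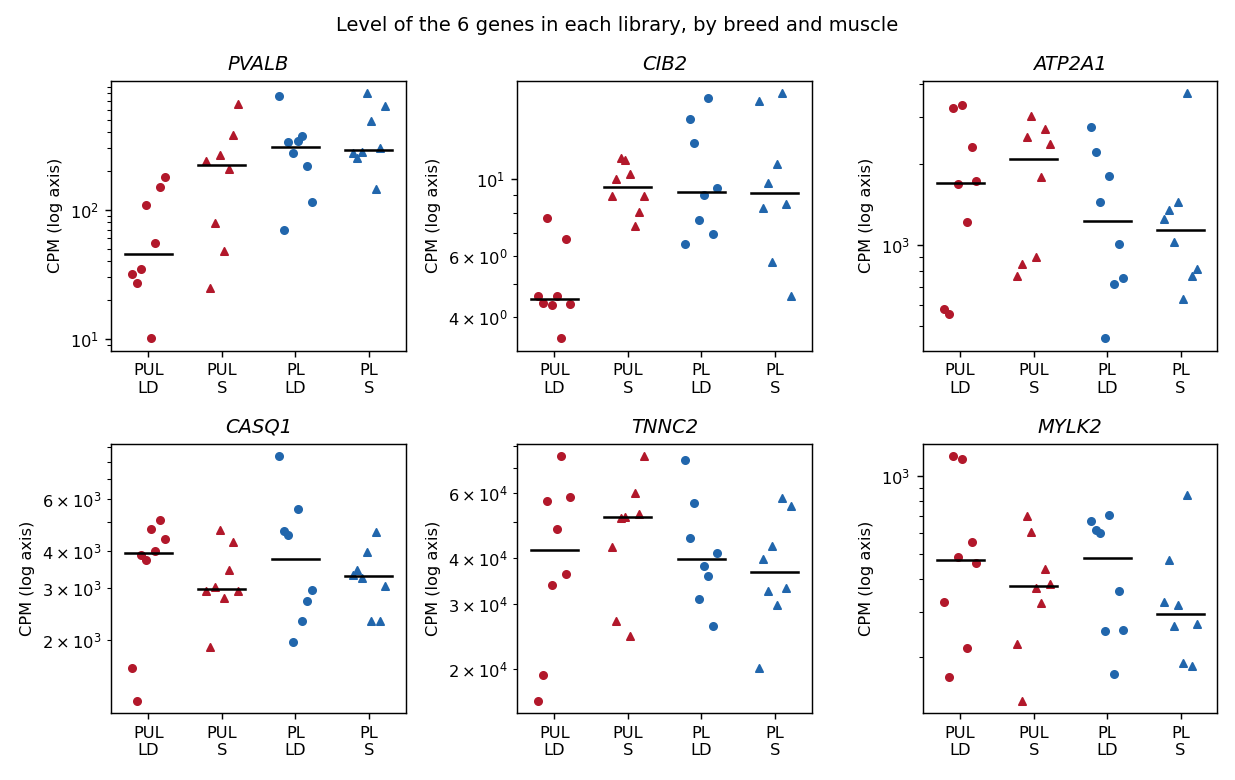
Level of each of the 6 genes in CPM (log axis) in the 32 libraries, by breed and muscle (circles LD, triangles S, red PUL, blue PL, black bars the medians of 8 libraries). PVALB and CIB2 are lowest in PUL LD, with medians of 45.2 and 4.51 CPM, and the groups of the other genes overlap throughout.

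The first comparison asked whether the breeds differed in LD. PVALB was higher in PL than in PUL by 2.09 on the log2 scale (SE 0.55), and CIB2 by 1.08 (SE 0.23). For PVALB, 6 of 8 PL libraries were above every PUL library and 5 of 8 PUL libraries below every PL library. For CIB2 these numbers were 5 and 6. The share of all tested genes that separated the breeds as far was not counted, so that these numbers are description only. Neither gene passed the test, edgeR's quasi-likelihood test with Benjamini-Hochberg adjustment over 10792 genes and a fold change of at least 1.3 (adjusted p = 0.481 for PVALB and 0.335 for CIB2). No member was called, against 0% of all tested genes. At an unadjusted p under 0.05 in edgeR's test, 2 of 6 members were found, against 7.15% of all tested genes. PVALB ranked 25th and CIB2 ranked 6th of the tested genes by p.

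Other tools set these genes on the other side of the threshold. DESeq2 called both (adjusted p = 0.022 for PVALB and 0.00875 for CIB2), and edgeR's exact test called CIB2 (adjusted p = 0.038) but not PVALB (adjusted p = 0.0644). When PL pigs 8 and 14 were left out, the differences were 2.22 for PVALB and 0.80 for CIB2 (quasi-likelihood test, adjusted p = 0.438 and 0.499).

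The fast pump, the store protein, fast troponin C and the kinase were not called in LD by any of the 3 tools. Their log2 differences of PL over PUL were -0.39 (SE 0.41) for ATP2A1, 0.21 (SE 0.33) for CASQ1, 0.03 (SE 0.31) for TNNC2 and -0.33 (SE 0.40) for MYLK2, each smaller than or close to its standard error, with adjusted p from 0.897 to 0.997. Without PL pigs 8 and 14 the differences were -0.41, 0.29, 0.055 and -0.27. Standard errors of this size do not show that the breeds were alike.

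Summed hepatocyte levels in LD were higher in PUL pigs 1 to 5 than in PUL pigs 13, 16 and 17, while in S these sums overlapped. The hepatocyte level used as a covariate below separated the same pigs in S too. There it was 0.22 to 4.92 in PUL pigs 1 to 5 and -0.91 to -0.80 in PUL pigs 13, 16 and 17. In LD, PVALB had a median of 32.03 CPM in PUL pigs 1 to 5 (10.1 to 109.5 CPM) and of 149.9 CPM in PUL pigs 13, 16 and 17 (55.5 to 178 CPM), and in S the medians were 79.2 CPM (24.83 to 267 CPM) and 383 CPM (207 to 667 CPM). The ranges overlapped in both muscles, and this split was not tested. Without PUL pigs 1 to 5, the difference of PL over PUL in LD was 1.297 (adjusted p = 0.962), and with the hepatocyte level as a covariate it was 1.52 (adjusted p = 0.782). For CIB2 the medians in LD were 4.61 CPM in pigs 1 to 5 and 4.38 CPM in the other PUL pigs, and the difference was 1.12 without these pigs and 1.16 with the covariate. The smooth muscle sum in LD ran from 37.7 to 97.4 CPM for PUL pigs and from 87.2 to 159 CPM for PL pigs. CNN1 had the largest median of the summed markers (45.1 CPM), and the study had named it as a breed gene in LD. Of 3 tested smooth muscle markers 2 had positive values in LD. These were CNN1 at 1.38 and ACTG2 at 0.98 (quasi-likelihood test, adjusted p = 0.179 and 0.555). The red blood cell sum in LD had medians of 139.95 CPM for PUL pigs and 380 CPM for PL pigs. The part of these markers in the result was not tested.

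In S, PVALB differed between the breeds by 0.74 (SE 0.52) and CIB2 by 0.13 (SE 0.24) on the log2 scale. The values of the other genes were -0.42 (SE 0.37) for ATP2A1, 0.03 (SE 0.19) for CASQ1, -0.29 (SE 0.26) for TNNC2 and -0.12 (SE 0.34) for MYLK2. No member was called by the quasi-likelihood test (adjusted p from 0.570 to 0.959), against 0% of 10687 genes, and none by DESeq2 or the exact test. None had an unadjusted p under 0.05, against 11.7% of all tested genes. Without PUL pigs 1 to 5, the difference of PVALB in S was -0.07, so that its direction turned. With the hepatocyte covariate, PVALB was at 0.10, ATP2A1 at -0.77 (SE 0.42) and TNNC2 at -0.61 (SE 0.27), with adjusted p of 0.939, 0.315 and 0.228 by the quasi-likelihood test. In S too, the summed red blood cell level was lower in PUL (median 67.5 CPM) than in PL (median 355 CPM). The 3 tested smooth muscle markers had positive values, with CNN1 at 0.70 (quasi-likelihood test, adjusted p = 0.270) and a median of 0.53. Of 3 tested muscle fibre markers 1 had a positive value, and the median was -0.05. ACTA1 was at -0.05 and DES at -0.70 (adjusted p = 0.302). None of these markers was called, and their part in the result was not tested.

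The ATP2A1 and MYLK2 values in S rested in part on the library labelled S of PL pig 14, in which both genes were at their PL maximum (3681 and 846 CPM). Without PL pigs 8 and 14, ATP2A1 was lower in PL by a log2 difference of -0.92 (SE 0.33) and MYLK2 by -0.62 (SE 0.29), with adjusted p of 0.195 and 0.288.

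**Figure D2:**
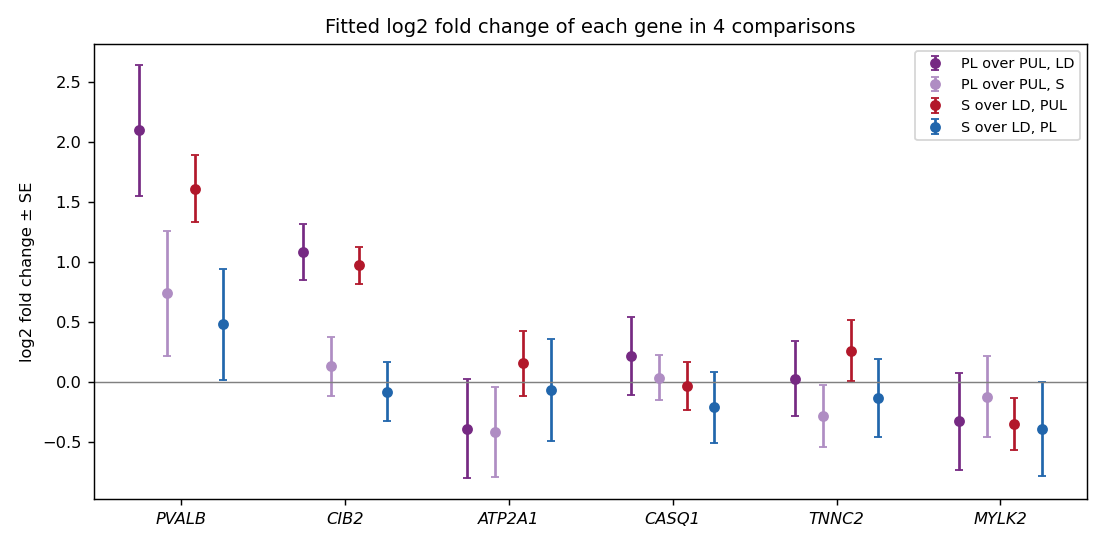
Fitted log2 fold change (points) and its standard error (bars) for each gene in 4 comparisons: PL over PUL in LD and in S, and S over LD in PUL and in PL pigs. PVALB and CIB2 lie above 0 in LD between breeds (2.09 and 1.08) and between muscles of PUL pigs (1.61 and 0.97), while most other points lie within about 1 standard error of 0.

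The second comparison asked whether S differed from LD of the same pig. Over all 16 pigs, PVALB was higher in S by 1.06 (SE 0.31) and CIB2 by 0.44 (SE 0.19) on the log2 scale. Each was higher in S in 12 of 16 pigs. For PVALB these were 7 of 8 PUL and 5 of 8 PL pigs, for CIB2 8 of 8 PUL and 4 of 8 PL pigs. The share of all tested genes with such a count over 16 pigs was not computed. Neither PVALB nor CIB2 passed the quasi-likelihood test with the pig as a block (adjusted p = 0.396 and 0.777). No member was called, against 0.112% of tested genes (13 of 11563). Both PVALB and CIB2 had an unadjusted p under 0.05, against 5.85% of tested genes. DESeq2 called PVALB (adjusted p = 0.0232) but not CIB2 (adjusted p = 0.474). Without PUL pigs 1 to 5, the differences were 0.85 for PVALB and 0.15 for CIB2 (adjusted p = 0.999 each). Without PL pigs 8 and 14, the differences were 1.16 for PVALB (adjusted p = 0.0818) and 0.56 for CIB2 (adjusted p = 0.222), while the number of genes called over the whole table rose from 13 to 110.

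Within PUL pigs, CIB2 was higher in S than in LD in 8 of 8 PUL pigs, by 1.2-fold in pig 16 to 2.63-fold in pig 4, with a median of 2.08-fold; S was higher in every PUL pig for 0.743% of all tested genes. PVALB was higher in S in 7 of 8 PUL pigs, with a median of 3.14-fold and a highest value of 7.52-fold in pig 1, and it was 0.917-fold in pig 2; S was higher in at least 7 PUL pigs for 5.47% of tested genes.

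The fitted differences in PUL were 1.61 (SE 0.28) for PVALB and 0.97 (SE 0.15) for CIB2. They ranked 12th and 9th by p among 10771 genes, and their adjusted p of 0.0956 and 0.0608 lay just above the threshold, which 0.065% of tested genes (7) passed. The unadjusted p was 0.000107 for PVALB and 5.08e-05 for CIB2; 8.45% of tested genes were under 0.05. The call depended on the test and on single pigs. DESeq2 called both genes (adjusted p = 1.38e-06 and 4.34e-05), the quasi-likelihood test without a filter on low counts called both (adjusted p = 0.0186 and 0.0255), and with the hepatocyte covariate it called PVALB (adjusted p = 0.0163). Without PUL pig 2, PVALB was called (1.82, adjusted p = 0.0112), and without PUL pig 16, CIB2 was called (1.06, adjusted p = 0.0492). In the 3 PUL pigs other than 1 to 5, the differences were 1.70 for PVALB (adjusted p = 0.0322) and 0.76 for CIB2 (adjusted p = 0.527). Without the pig block they were 1.71 and 0.94, with adjusted p of 0.989 and 0.0845.

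Of the other members, ATP2A1 and TNNC2 had positive and CASQ1 and MYLK2 negative values in PUL, none of them called. ATP2A1 was higher in S in 6 of 8 PUL pigs, TNNC2 in 5, CASQ1 in 3 and MYLK2 in 2, and the fitted differences were 0.15 (SE 0.27), 0.26 (SE 0.25), -0.04 (SE 0.20) and -0.35 (SE 0.22), with adjusted p from 0.700 to 0.979.

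In PL pigs, S and LD showed no common direction for either gene. PVALB was higher in S in 5 of 8 PL pigs, from 0.363-fold in pig 7 to 5.62-fold in pig 18, and CIB2 in 4 of 8, from 0.488-fold in pig 18 to 2.59-fold in pig 7. The same pair of pigs thus gave the extremes of both genes, in opposite order. The fitted differences were 0.48 (SE 0.46) for PVALB and -0.08 (SE 0.25) for CIB2, the adjusted p was 1 for every member, and no gene of the table was called (0% of 10680; 1.35% had an unadjusted p under 0.05, none of them a member). DESeq2 called none of the 6 genes.

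With PL pigs 8 and 14 left out, the PL differences were 0.53 (SE 0.45) for PVALB and 0.01 (SE 0.29) for CIB2. MYLK2 was then lower in S by a log2 difference of -0.80 (SE 0.28), with an unadjusted p of 0.0193 and an adjusted p of 0.582, where it was -0.39 (SE 0.39) with all PL pigs.

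The difference of S over LD between the breeds was tested directly. The fitted interaction, PL minus PUL, was -1.05 (SE 0.29) for CIB2 and -1.12 (SE 0.57) for PVALB, and lay between -0.39 and -0.04 for the other members. CIB2 had an unadjusted p of 0.0022, the sixth smallest of 11563 genes, and PVALB of 0.065, and the adjusted p of each was 0.9996 by the quasi-likelihood test. No gene was called (0%), and 2.54% had an unadjusted p under 0.05, among them 1 of 6 members. DESeq2 called no member. A difference between the breeds in S over LD was therefore not shown, in a comparison where 68% of 4-fold and 28% of 2-fold changes were recovered from simulated counts (11384 genes). These shares are averages over genes simulated without pig effects, and need not hold for a gene with as wide a spread as PVALB. Without PL pigs 8 and 14, the values were -0.95 (SE 0.32) for CIB2 and -1.07 (SE 0.55) for PVALB.

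**Figure D3:**
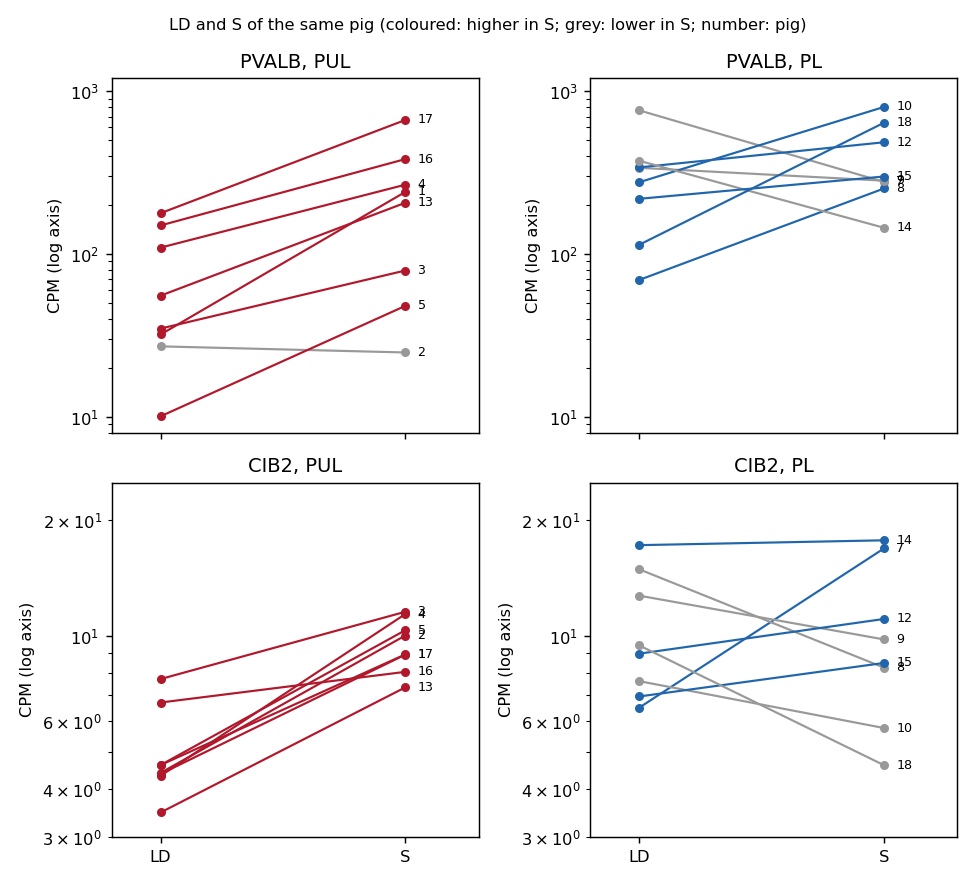
Level in CPM (log axis) of PVALB and CIB2 in LD and S, with a line for each pig (coloured where S is higher, grey where S is lower, with the pig's number). The lines of PUL pigs point up in 7 of 8 pigs for PVALB and 8 of 8 for CIB2, and the lines of PL pigs cross.

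Of the slow or cardiac counterparts of the 6 genes, only TNNC1, the slow and cardiac troponin C, and CIB1, a close relative of CIB2, could be matched to an ID. TNNC1 ran from 98.1 CPM in LD of PUL pig 17 to 6871 CPM in LD of PUL pig 1, a wider spread within groups than that of any member (pooled SD 1.58 on the log2 scale). CIB1 ran from 21.5 to 44.8 CPM, and its log2 differences were 0.09 (SE 0.16) between breeds in LD, -0.13 (SE 0.12) between breeds in S and 0.19 (SE 0.12) for S over LD in PUL, none called (adjusted p from 0.682 to 0.966).

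The ratio of TNNC2 to TNNC1 within a library does not depend on the scaling between libraries. On the log2 scale it was 4.53 ± 2.23 in PUL LD, 4.32 ± 1.56 in PUL S, 4.58 ± 1.84 in PL LD and 4.42 ± 1.98 in PL S (SD, n = 8), and it ran from 1.26 in LD of PUL pig 1 to 9.21 in LD of PUL pig 17. In 6 exact two-sided permutation or sign-flip tests, p ran from 0.794 to 0.972 and the adjusted p was 0.972 for each. Without PUL pigs 1 to 5, the difference of PL over PUL was -1.47 in LD and -1.52 in S (exact permutation test, adjusted p = 0.927 each). The S over LD difference of this ratio within a pig ran from -7.00 in PL pig 7 to 4.38 in PL pig 18.

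Related genes were read in 4 lists beside the members. Of the list called fast sarcomere 6 of 14 genes could be matched, of slow fibre genes 6 of 15, of genes of calcium release and uptake 16 of 25 (15 tested) and of calcium sensors and effectors 20 of 25 (19 tested). The fast sarcomere list held MYBPC2, TPM1, MYOZ1, MYL1, the glycogen enzyme PYGM and ACTA1, which also served as a general muscle fibre marker. None of its myosin heavy chains was matched, and MYL11 was not in it, so that it covers fast fibres only in part. No gene of any list was called in any of the 6 comparisons by the quasi-likelihood test. Between breeds in LD, MYL1, a fast myosin light chain (0.53, SE 0.23), and CAPN2, a calcium-activated protease (0.28, SE 0.13), had the smallest p of their lists and were the only list genes with an unadjusted p under 0.05, which 7.15% of all tested genes had. The list medians were 0.18 for fast sarcomere, -0.34 for slow fibre, 0.04 for release and uptake and 0.09 for sensors, where the median of all tested genes was 0.01.

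Between breeds in S, 3 list genes had an unadjusted p under 0.05, a smaller share of the lists than the 11.7% of all tested genes. STIM1, the calcium sensor of the reticulum, differed by -0.49 (SE 0.17, adjusted p = 0.292), CAMK2D, a calmodulin-dependent kinase, by 0.59 (SE 0.22, adjusted p = 0.325) and CAPN3, the muscle calpain, by -0.40 (SE 0.18, adjusted p = 0.397). The list medians were -0.08, -0.11, -0.13 and 0.01 in the order given above, and that of all genes was 0.02.

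For S over LD in PUL pigs, the largest values were among the sensors and effectors. NFATC1, a transcription factor that calcineurin activates, was higher in S by 1.21 (SE 0.20, adjusted p = 0.0635), and S100A1, a calcium-binding regulator of the release channel, by 1.61 (SE 0.29, adjusted p = 0.110), next to 1.61 for PVALB and 0.97 for CIB2. ATP2B1, a calcium pump of the cell surface, and CACNA2D1, a subunit of the voltage sensor channel, were at -0.85 (SE 0.32) and -0.67 (SE 0.26), with adjusted p of 0.523 and 0.546. All 6 tested genes of the fast sarcomere list and 5 of 6 slow fibre genes had positive values, with medians of 0.21 and 0.48 against 0.00 for all genes, and none of them had an unadjusted p under 0.05.

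In PL pigs, S100A1 was at 0.67 (SE 0.47) and RCAN1, a calcineurin regulator, at 1.02 (SE 0.63), and no list gene had an unadjusted p under 0.05. In the interaction test only NFATC1 did (-0.99, SE 0.35, adjusted p = 0.9996). Over all pigs, S100A1 was higher in S by 1.15 (SE 0.31, adjusted p = 0.274) and RCAN1 by 1.37 (SE 0.39, adjusted p = 0.396).

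Co-variation among pigs differed between pairs of the 6 genes, and the r over all genes is given with the likeness below. Breed-centred log2(CPM + 0.5) values were correlated over the 16 pigs of each muscle, 30 pairs in all, with 100000 permutations of pigs within breed and adjustment over the 30 pairs. ATP2A1, CASQ1 and MYLK2 varied together in both muscles. In LD, ATP2A1 correlated with CASQ1 at r = 0.91 (permutation p = 1e-05, the smallest these permutations can give, adjusted p = 0.0003; rho = 0.86, p = 0.00013, adjusted p = 0.0013) and with MYLK2 at r = 0.88 (permutation p = 7e-05, adjusted p = 0.000675; rho = 0.93, p = 1e-05, adjusted p = 0.0003). In S the values were r = 0.81 (p = 9e-05, adjusted p = 0.000675; rho = 0.84, p = 0.00037, adjusted p = 0.00277) and r = 0.87 (p = 2e-05, adjusted p = 0.0003; rho = 0.86, p = 7e-05, adjusted p = 0.00105).

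CASQ1 and MYLK2 correlated at r = 0.74 in LD (permutation p = 0.0025, adjusted p = 0.0107; rho = 0.70, p = 0.00497, adjusted p = 0.0213) and r = 0.80 in S (p = 0.00055, adjusted p = 0.0033; rho = 0.72, p = 0.00296, adjusted p = 0.0178). Within each breed, r of these 3 pairs ran from 0.64 to 0.95 over both muscles (n = 8). Without the 2 pigs farthest from the median of the first gene, the 6 values were 0.64 to 0.87 and all stayed under 0.05.

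With all pigs, TNNC2 passed the threshold in LD with ATP2A1 and CASQ1, and its r with MYLK2 did not. These pairs were not tested against each other. The values were r = 0.69 with ATP2A1 (permutation p = 0.00573, adjusted p = 0.0215; rho = 0.65, p = 0.0097, adjusted p = 0.0334) and r = 0.80 with CASQ1 (p = 0.00066, adjusted p = 0.0033; rho = 0.71, p = 0.00382, adjusted p = 0.0191). With MYLK2, r was 0.45 in LD (permutation p = 0.116, adjusted p = 0.248; rho = 0.46, p = 0.0944, adjusted p = 0.206) and 0.49 in S (p = 0.0665, adjusted p = 0.154; rho = 0.44, p = 0.0961, adjusted p = 0.206). With ATP2A1 and CASQ1 in S, r was 0.61 (permutation p = 0.0193, adjusted p = 0.0578; rho = 0.65, p = 0.01, adjusted p = 0.0334) and 0.52 (p = 0.0499, adjusted p = 0.125; rho = 0.53, p = 0.0449, adjusted p = 0.112). Without the 2 farthest pigs, the LD values with ATP2A1 and CASQ1 were 0.60 and 0.60 (adjusted permutation p = 0.0861 and 0.0779). TNNC2 with MYLK2, without the 2 pigs farthest in TNNC2, was 0.71 in LD and 0.68 in S (adjusted permutation p = 0.0348 each). The pairs that passed in LD thus changed with this setting. Without PL pigs 8 and 14, r in LD was 0.70 with ATP2A1, 0.81 with CASQ1 and 0.45 with MYLK2 (adjusted permutation p = 0.0301, 0.0083 and 0.247). TNNC2 takes a large share of each library, and with scaling to library size alone, r in LD was 0.40 for ATP2A1 and 0.55 for CASQ1 (adjusted p = 0.331 and 0.121). Under that scaling CASQ1 with MYLK2 in LD was 0.57 (adjusted p = 0.113) and ATP2A1 with CASQ1 in S was 0.63 (adjusted p = 0.0555), while ATP2A1 with MYLK2 stayed at 0.82 in both muscles (adjusted p = 0.0029).

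With all pigs, PVALB and CIB2 were not found to vary with these genes in LD. In LD, r of PVALB with the 4 genes other than CIB2 lay between -0.07 and 0.33, and r of CIB2 with the 4 genes other than PVALB between 0.00 and 0.20, with adjusted p from 0.400 to 0.993. Without the 2 pigs farthest in PVALB, its r with CASQ1 in LD was 0.69 (adjusted permutation p = 0.0348). With ATP2A1, TNNC2 and MYLK2 it was then 0.56, 0.47 and 0.35 (adjusted permutation p = 0.1, 0.245 and 0.355). In S, PVALB and CIB2 moved in opposite directions at r = -0.46 (permutation p = 0.0113, adjusted p = 0.0376; rho = -0.56, p = 0.0204, adjusted p = 0.0613). Within breeds, r was -0.45 in PUL and -0.78 in PL, and without the 2 farthest pigs it was -0.60 (adjusted p = 0.0348). It was -0.39 without PL pigs 8 and 14 (adjusted p = 0.0995). In LD, the same pair gave r = -0.15 (permutation p = 0.567, adjusted p = 0.709; rho = -0.29, p = 0.285, adjusted p = 0.475).

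Leaving out PL pigs 8 and 14 changed 2 further pairs in S. PVALB with TNNC2 went from r = 0.59 (permutation p = 0.0239, adjusted p = 0.0652; rho = 0.56, p = 0.031, adjusted p = 0.0844) to 0.80 (p = 0.00083, adjusted p = 0.00622), and CIB2 with TNNC2 from -0.35 (p = 0.192, adjusted p = 0.358; rho = -0.39, p = 0.154, adjusted p = 0.307) to -0.66 (p = 0.00534, adjusted p = 0.02).

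**Figure D4:**
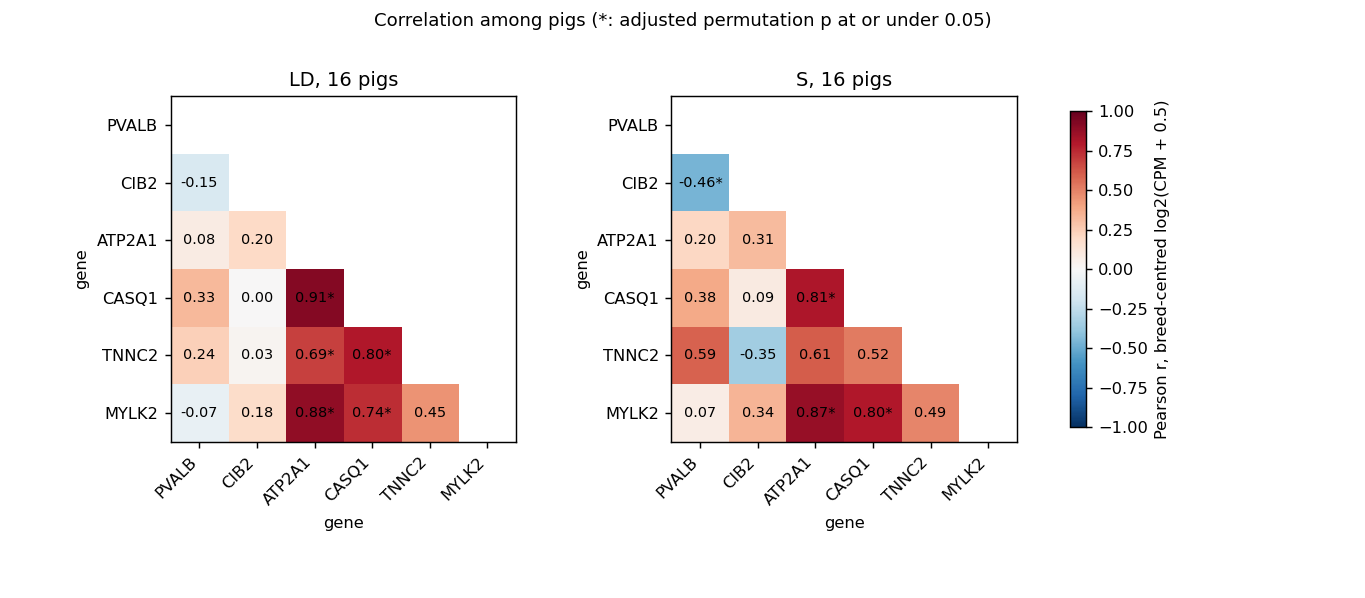
Pearson r between each 2 of the 6 genes over 16 pigs in LD (left) and S (right), from breed-centred log2(CPM + 0.5), with an asterisk where the adjusted permutation p was at or under 0.05. ATP2A1, CASQ1 and MYLK2 form a block of high r in both muscles (0.74 to 0.91), and PVALB with CIB2 in S is the pair with a negative r that passed (-0.46).

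No member's level in LD was found to follow its level in S of the same pig. Over 16 pigs, r between LD and S was 0.54 for PVALB (permutation p = 0.0525, adjusted p = 0.315; rho = 0.47, p = 0.0893, adjusted p = 0.536) and 0.12 to 0.24 for the other 5 genes (adjusted p from 0.665 to 0.695; rho 0.09 to 0.27). Within PUL pigs, r was positive for all 6 genes, from 0.35 for CIB2 to 0.83 for PVALB. Within PL pigs it was negative for 5 of 6, from -0.53 for TNNC2 to 0.21 for CIB2, and without PL pigs 8 and 14 it was negative for all 6, from -0.55 to -0.18 (n = 6). With 14 pigs, r over both breeds was 0.61 for PVALB and 0.57 for MYLK2 (adjusted p = 0.19 each).

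The genes most like each member were found as a description, from the Pearson r of values centred on the mean of each group over all 32 libraries, among 5046 or 5047 genes with a mean of at least 10 CPM. These libraries share depth and scaling, and r was high for many genes. Its 95th percentile was 0.74 for ATP2A1, 0.71 for TNNC2 and for MYLK2, 0.66 for CASQ1, 0.47 for PVALB and 0.38 for CIB2. ATP2A1 had r = 0.88 with MYLK2, 0.86 with CASQ1 and 0.65 with TNNC2, where 14, 28 and 505 genes had a higher r with ATP2A1. TNNC2 had r = 0.46 with MYLK2, where 1079 genes had a higher r with TNNC2. ATP2A1 was most like MYBPC2, fast myosin-binding protein C (r = 0.93), CAPN1, calpain 1 (0.93), PKM, the muscle pyruvate kinase (0.92), INPPL1 (0.91) and ALDOC, an aldolase (0.91). CASQ1 was most like PKM (0.94), EFCAB7 (0.88), RABGGTA (0.88), the glycolytic enzyme GPI (0.86) and ATP2A1 (0.86).

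TNNC2 was most like PGAM2, the muscle phosphoglycerate mutase (r = 0.95), MYL11, the fast regulatory light chain (0.94), AK1, adenylate kinase 1 (0.94), MACROD1 (0.93) and TPM1, a tropomyosin (0.91). Among the genes most like MYLK2 were ENSSSCG00000012102 (0.90), FBXO31 (0.89), ENSSSCG00000028752 (0.88) and ATP2A1 (0.88). The lists of these 4 genes thus hold sarcomere proteins of fast fibres and enzymes of glycolysis.

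The lists of PVALB and CIB2 were of another kind. PVALB was most like CPXM1, a carboxypeptidase-like protein (r = 0.80), ENSSSCG00000010991 (0.72), SSR3, of the protein translocation channel (0.72), SKP2, a ubiquitin ligase subunit (0.72), and ENSSSCG00000029448 (0.71). CIB2 was most like COQ8A, of coenzyme Q synthesis (0.68), ENSSSCG00000000576 (0.66), ENSSSCG00000022373 (0.65), AIFM1, a mitochondrial protein (0.63), and MYH6, a myosin heavy chain of heart (0.63).

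CIB2 also differed from the other members on the slow counterpart. Its r with TNNC1 was 0.59, and only 11 of 5047 genes had a higher r with CIB2. The r with TNNC1 was -0.50 for PVALB, -0.46 for TNNC2, -0.30 for CASQ1, -0.15 for ATP2A1 and 0.02 for MYLK2. In 3 libraries TNNC1 lay more than 3 log2 units below its group mean; over the other 29 libraries r was 0.51 for CIB2, -0.35 for PVALB and -0.27 for TNNC2. The r of CIB2 with ATP2A1 and MYLK2 was 0.25 and 0.26, above that of 86.2% and 86.3% of genes. For PVALB, r was 0.40 with TNNC2, 0.33 with CASQ1, 0.14 with ATP2A1 and -0.005 with MYLK2. These were above that of 90.6%, 84.9%, 63.3% and 45.9% of genes.

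**Figure D5:**
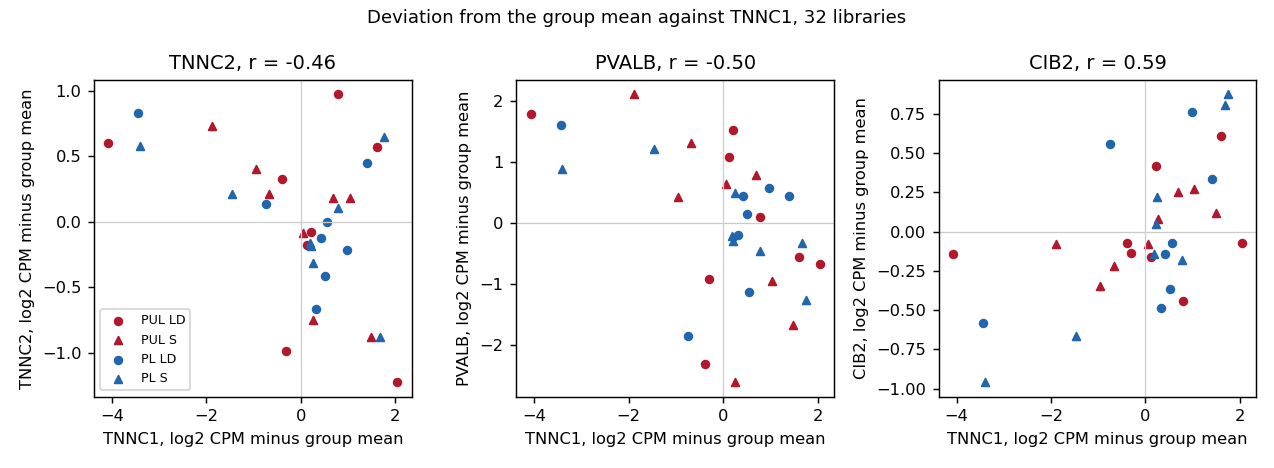
Deviation from the group mean of TNNC2, PVALB and CIB2 (vertical) against that of TNNC1 (horizontal), in log2 CPM, for 32 libraries (circles LD, triangles S, red PUL, blue PL). Libraries high in TNNC1 tend to be low in TNNC2 and PVALB (r = -0.46 and -0.50) and high in CIB2 (r = 0.59), with 3 libraries far to the left.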

How the data were processed

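RNA of 32 muscle libraries was sequenced in 4 technical replicates. The authors removed adapters and low-quality reads with Flexbar, aligned to Sscrofa10.2 with Bowtie 2 and deposited RSEM expected counts per gene, which divide reads of several possible origins among genes. For the count tests they were rounded to integers. Reads of near-identical copies may be split. All columns were matched to samples by their labels. The isoform table was not used.

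Genes were filtered with filterByExpr, scaled by TMM and tested with edgeR 4.0.16 (glmQLFit and glmQLFTest; R 4.3.3, limma 3.58.1) with Benjamini-Hochberg adjustment, and called at an adjusted p of at most 0.05 and a fold of at least 1.3. S over LD had the pig as a block. The labels give LD and S of a pig the same number. Over 11563 genes, the correlation of their deviations from the group means was 0.04 to 0.69 in PUL and -0.52 to 0.64 in PL pigs, lowest in PL pig 14. The other library of the same pig was the best match in 3 of 8 PUL and 1 of 8 PL pigs. Correlations used log2(CPM + 0.5), with SciPy 1.17.1, NumPy 2.4.6 and Python 3.11.15, and figures matplotlib 3.10.9. Alternatives were DESeq2 1.42.0, edgeR's exact test, other scalings and filters, a hepatocyte covariate of 9 markers and left-out pigs. On simulated counts for LD between breeds (10506 genes), 88% of 4-fold and 48% of 2-fold changes were recovered, with 4 false of 140 calls.

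Symbols were matched for 11804 of 25322 IDs. ATP2A2, CASQ2 and MYLK3 were not matched, so that 1 of 3 planned ratios was computed. The named genes were the 6 members, their slow or cardiac counterparts, at most 2 genes of each list by smallest p where none was called, and the 5 genes most like each member, of which 1 is not reported here. The genes read to check the muscle labels were chosen after their values were seen. The members and lists were chosen with earlier results of these data known. Leaving out PL pigs 8 and 14, and PUL pigs 1 to 5 in the tests of PUL muscles and of breed by muscle, was chosen after seeing the data. No 2 libraries of a group agreed within sampling noise (lowest chi-square per degree of freedom 35.5).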

Additional observations from a re-analysis of the deposited data

Results flagged for a closer look

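ATP2A1 in the library labelled S of PL pig 14 was at 3681.2 CPM, and the gap to the other 7 PL S libraries exceeded Dixon's 95% critical value on the log2(CPM + 0.5) scale. Of 24 groups of 8 libraries checked, 1 was picked out in this way, and chance picks out about 1 in 20. This is a library that lay with the other muscle on genes that differ between the muscles of PUL pigs, and the part of this in the ATP2A1 level was not tested.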

How the results depend on the processing

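The number of genes called moved with the test. DESeq2 called 19 between breeds in LD, 103 in S, 60 for S over LD in all pigs, 109 in PUL, 2 in PL and 1 for breed by muscle, with 2, 0, 1, 2, 0 and 0 members among them. The exact test called 13 in LD (1 member) and 57 in S, and a fit of both muscles 6 and 70. Without a filter 4, 4 and 25 genes were called in LD, in S and for PUL (2 members in PUL), and with at least 10 counts in every library 0 in all pigs and 3 in PUL. With the hepatocyte covariate the counts were 13 in S, 7 in all pigs and 12 in PUL (1 member), with RLE factors 1 in S. Without PUL pigs 1 to 5 they were 1 in LD, 1 in S, 0 in all pigs and 12 in PUL (1 member), and without PL pigs 8 and 14 they were 2 in LD, 2 in S, 110 in all pigs and 3 in PL. Leaving out 1 pig gave 0 to 1 in LD, 0 to 1 in S, 4 to 85 in all pigs (85 without PL pig 14), 3 to 15 in PUL (3 without PUL pig 3, 15 without PUL pig 5) and 0 to 1 member in PUL.

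Directions turned only for values that no test called. With library size alone, breed by muscle was 0.056 for ATP2A1, 0.064 for CASQ1 and 0.23 for MYLK2, S over LD in PL was 0.061 for ATP2A1 and 0.0068 for CIB2, and TNNC2 between breeds in LD was -0.11. With the hepatocyte covariate, ATP2A1 for S over LD in PL was 0.20, and between breeds CASQ1 was -0.089 in LD and -0.043 in S, MYLK2 0.024 and TNNC2 -0.29 in LD. Without PUL pigs 1 to 5, between breeds in LD CASQ1 was -0.11, MYLK2 0.15 and TNNC2 -0.37, in S CASQ1 was -0.095 and PVALB -0.072, breed by muscle was 0.15 for CASQ1, and TNNC2 over all pigs was -0.044. Without PL pigs 8 and 14, ATP2A1 over all pigs was -0.060, between breeds in S CASQ1 was -0.10 and CIB2 -0.017, and CIB2 for S over LD in PL was 0.011. The log2 ratio of TNNC2 to TNNC1 turned to -1.47 in LD, -1.52 in S and -0.046 for breed by muscle without PUL pigs 1 to 5, and to 0.088 in PL without PL pigs 8 and 14.

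Leaving out 1 pig turned the direction within these ranges: ATP2A1 from -0.53 to 0.0080 for breed by muscle, -0.10 to 0.16 over all pigs and -0.38 to 0.16 in PL, CASQ1 from -0.011 to 0.31 between breeds in LD, -0.057 to 0.12 in S and -0.16 to 0.064 in PUL, and CIB2 from -0.029 to 0.24 between breeds in S and -0.27 to 0.051 in PL. For MYLK2 they were -0.36 to 0.18 for breed by muscle and -0.44 to 0.045 between breeds in S, and for TNNC2 -0.13 to 0.18 in LD, -0.023 to 0.17 over all pigs and -0.26 to 0.10 in PL.

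Among correlations in LD, library size alone left 2 pairs past the threshold and turned PVALB with ATP2A1 to -0.13 and CIB2 with ATP2A1, CASQ1, TNNC2 and MYLK2 to -0.16, -0.43, -0.42 and -0.091. In S it turned PVALB with MYLK2 to -0.12, and CIB2 between LD and S to -0.055. A pseudocount of 5 turned CIB2 with CASQ1 in LD to -0.014. Without the 2 farthest pigs, PVALB with MYLK2 was 0.35 and CIB2 with TNNC2 -0.038 in LD. In S, PVALB with ATP2A1 and MYLK2 was -0.079 and -0.39, and CIB2 with ATP2A1 and CASQ1 was -0.072 and -0.18. Between LD and S, CIB2, CASQ1 and MYLK2 were then -0.16, -0.28 and -0.19. Without PL pigs 8 and 14, PVALB with MYLK2 in LD was 0.043, CIB2 with CASQ1 in S -0.14 and CIB2 between LD and S -0.036. Without the 2 farthest pigs, TNNC2 with MYLK2 passed in LD (0.71) and S (0.68), PVALB with CASQ1 in LD (0.69) and CIB2 with TNNC2 in S (-0.58).

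With the replicate number as a block between breeds, whose pigs share only a number, PVALB was 2.29 and CIB2 1.04 in LD, 1.14 and 0.01 in S, and no gene was called. Without the pig as a block, MYLK2 for breed by muscle was 0.19. The cause of these changes was not tested. Isoform counts were not run. Depth limits CIB2 most, which rested on as few as 47 counts.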
